A study of Mus musculus with 6 samples.

Results

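The genes described here encode the proteins of the mitochondrial ribosome. They were taken as every gene with 1 annotated symbol starting with Mrpl (large subunit) or Mrps (small subunit) followed by a digit. There were 74 such genes, 47 of the large and 27 of the small subunit, among 12393 genes with 1 symbol on the array, and they were read by 127 probe sets. A gene was represented by its brightest probe set, the one with the highest mean over all 6 arrays. The samples were CD4+CD25+ regulatory T cells (Treg) separated magnetically from C57Bl/6 mice. The p300-deleted group, with the genotype fl-p300/Foxp3cre, carried a floxed allele of the histone acetyltransferase p300 together with a Cre recombinase driven from Foxp3, the gene of the lineage transcription factor of Treg, so that deletion is directed to cells that express Foxp3. The control group carried Foxp3cre alone, and its sample titles call it WT. Each group had 3 samples described as independent, with 1 array each, and the labels leave unsaid if different animals were used. The p-values therefore reflect only how these samples vary, and that variation may be technical.

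Mitochondrial ribosomes translate the few proteins encoded in mitochondrial DNA, which are core subunits of the respiratory chain and of ATP synthase. Their ribosomal RNAs come from mitochondrial DNA, but all their proteins are encoded in the nucleus, made in the cytosol and imported. About as many of these proteins have a bacterial relative as do not, and the latter arose in the mitochondrial lineage. Treg are known for a metabolism that relies on mitochondrial respiration, and mitochondrial ribosomes make subunits of that machinery.

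Promoters of the members were read from RefSeq (build GRCm38.p6), which listed a start for 65 of the 74 genes, with 250 bases before and 50 bases after it. The windows below are shown because they belong to members at both ends of the range of differences and to a pair of members that lie head to head. Each runs 5′ to 3′ on the strand of the gene and ends at the base before its start. Capitals mark a match to GCGC, any base and TGCGC, the motif of NRF1, a factor of nuclear genes for mitochondrial proteins, or to CCGGAAG, the motif of ETS factors such as GABP.
Mrpl12 (chr11:120484537-120484636, plus strand): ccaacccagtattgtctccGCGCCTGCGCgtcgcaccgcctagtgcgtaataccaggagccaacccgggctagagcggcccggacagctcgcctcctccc
Mrpl51 (chr6:125192100-125192199, plus strand): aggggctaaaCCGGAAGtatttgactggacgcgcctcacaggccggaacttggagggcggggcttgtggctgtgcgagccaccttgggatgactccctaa
Mrps12 up to the start of Sars2 (chr7:28741822-28741967, minus strand): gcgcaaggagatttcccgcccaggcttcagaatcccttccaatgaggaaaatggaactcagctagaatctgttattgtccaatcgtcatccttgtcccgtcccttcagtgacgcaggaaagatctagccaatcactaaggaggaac
Mrpl46 up to the start of Mrps11 (chr7:78783090-78783130, minus strand): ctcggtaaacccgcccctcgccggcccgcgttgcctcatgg
Mrps31 (chr8:22411240-22411339, plus strand): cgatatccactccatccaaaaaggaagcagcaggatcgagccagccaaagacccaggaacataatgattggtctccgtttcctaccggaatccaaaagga
Mrpl1 (chr5:96210015-96210114, plus strand): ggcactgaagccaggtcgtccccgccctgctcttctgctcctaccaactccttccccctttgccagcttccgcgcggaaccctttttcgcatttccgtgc
In the window of Mrpl12 the NRF1 motif began 81 bases before the start, and in that of Mrpl51 the ETS motif began 90 bases before it. The printed windows of the other 4 hold no match to either motif, but the whole promoter of Mrps12 has an ETS match that is not within its printed bases. Of the 5 large subunit members with the highest differences, Mrpl21 (ETS), Mrpl9 and Mrpl45 (NRF1) have a match in their promoters. Mrpl48 and Mrpl1 have no match to either.

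Searched on both strands of the whole window, the NRF1 motif was found in 12 of 65 member promoters (18.5%), against 4.78% of the 27025 genes in the promoter table and 11.1% of the 7058 tested genes with an entry. The ETS motif was found in 23 members (35.4%), against 9.12% and 19.3%. The motif AAGATGG of YY1, another factor known at genes of this class, was found in 12 members (18.5%), against 6.48% and 7.65%. In all 39 of the 65 held at least 1 of the 3 motifs and 8 held at least 2, and no matches of different motifs overlapped. A start of another protein-coding gene on the opposite strand lay within 1000 bases upstream for 22 members (33.8%), against 8.04% and 12.9%. By subunit, the NRF1 motif was found in 9 of 41 large (22.0%) and 3 of 24 small (12.5%) subunit promoters. The ETS motif was found in 13 (31.7%) and 10 (41.7%), and that of YY1 in 7 (17.1%) and 5 (20.8%). Of the 17491 protein-coding genes in the promoter table, 6.60%, 11.9% and 6.37% held the NRF1, ETS and YY1 motifs. These are descriptions of the sequence, and a match is not a site of binding.

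The check of the cell type gave a mixed result. Cd3e, Cd3g, Cd4 and Il2ra, which encode T cell receptor components, the CD4 coreceptor and CD25, were bright in all 6 arrays. Ikzf2, which encodes the Treg factor Helios, read 5.47, 5.02 and 5.29 in p300-deleted and 4.11, 4.18 and 5.68 in control arrays, near or below the array medians in both groups. Foxp3 read 2.57, 3.04 and 3.15 in the p300-deleted arrays, below the lower quartile of each of those arrays (3.26 to 3.29), against 9.63, 9.35 and 9.39 in controls. The level of Ep300, the deleted gene, was not analysed here. Of the markers of other cells, 4 of 6 tested for plasma cells, 6 of 6 for mast cells and basophils, 2 of 7 for NK and cytotoxic cells, 0 of 6 for myeloid cells and 0 of 5 for B cells were higher at an adjusted p under 0.05 in limma, and 4 of 13 markers of dividing cells were lower. The 6 tested myeloid markers, of which 0 passed, had a median difference of 1.36, and the tested B cell markers a median of -0.30. Array means were taken over all 8 myeloid markers present, also Cd14 and Itgam, which were too dim to be tested. These means were 6.07 to 7.40 in p300-deleted and 4.92 to 5.78 in control arrays, without overlap. The part of these other cells in the values below was not tested. Array medians were 5.38 to 5.46 on the log2 scale, but control 2 was the highest array for most genes described here. In bulk samples such as these, fewer cells of a type and less RNA per cell cannot be told apart.

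None of the 74 mitochondrial ribosomal protein genes passed the test between groups. All 74 were bright enough to be tested, with means over the 6 arrays of 6.15 to 10.77, above the limit of 3.91 below which genes were left out. At an adjusted p under 0.05 in limma 0 members were called, against 1.72% of the 8675 genes tested (0.991% higher and 0.726% lower). At an adjusted p under 0.10 the count was again 0, against 4.60% (2.27% higher and 2.33% lower). Unadjusted, 4 members were lower and 4 higher at a p under 0.05, against 9.89% and 8.21% of all tested genes (18.1% in both directions), and the lowest adjusted p of any member was 0.110. For 10 members no array of one group lay within the range of the other (13.5%), 7 lower and 3 higher, against 23.7% of all tested genes, 13.2% lower and 10.5% higher. Log2 differences, always taken as the p300-deleted mean less the control mean, ran from -0.36 to 0.57 by the brightest probe sets. By these, 0 members reached a 1.5-fold difference. Of the 74 members 53 (71.6%) had a difference below 0, against 55.0% of all tested genes. Their median was -0.08, with quartiles of -0.18 and 0.01, and the median of all tested genes was -0.03. The standard error (SE) of a member's difference had a median of 0.13.

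**Figure D1:**
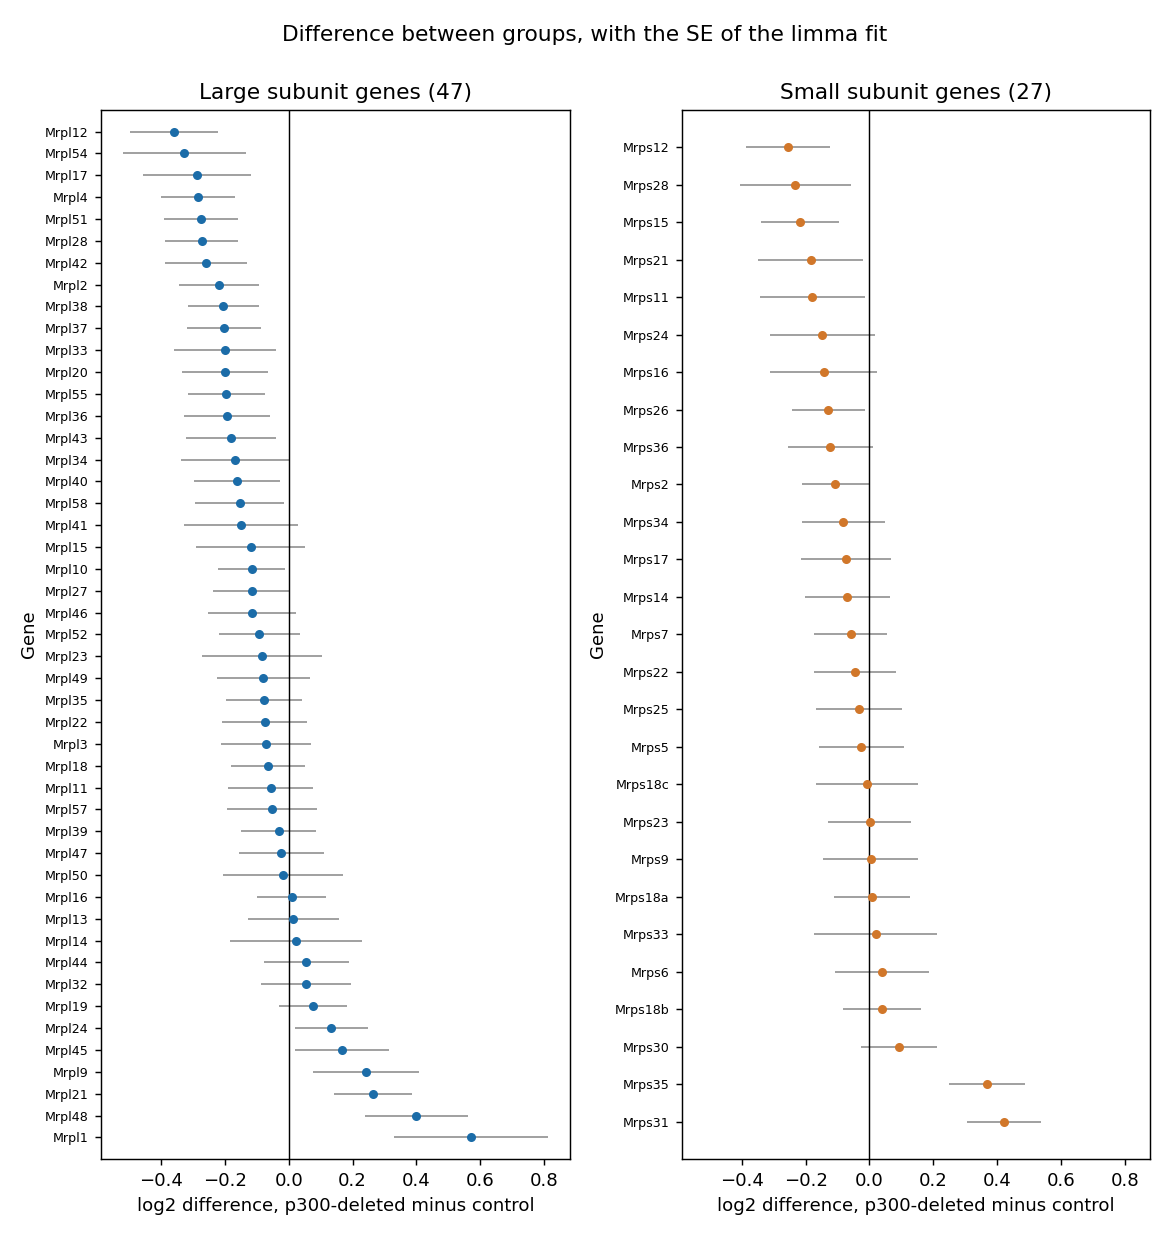
Log2 difference of each of the 74 genes, p300-deleted minus control (horizontal axis), with bars of 1 SE of the limma fit, for the 47 large subunit genes (left) and the 27 small subunit genes (right). Points run from -0.36 for Mrpl12 to 0.57 for Mrpl1, and most bars lie near or across 0.

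Among the proteins of the large subunit, the 5 lowest differences were those of Mrpl12, Mrpl54, Mrpl17, Mrpl4 and Mrpl51. Mrpl12, the homologue of the bacterial stalk protein that recruits translation factors, read 9.16, 9.19 and 9.10 in p300-deleted 1, 2 and 3 and 9.41, 9.80 and 9.32 in control 1, 2 and 3. Every p300-deleted array lay below every control, with control 2 the highest. The group means were 9.15 ± 0.05 (SD, n = 3) and 9.51 ± 0.25 (SD, n = 3), and the difference was -0.36 (SE 0.14, adjusted p = 0.221 in limma), or -0.21 without control 2. Mrpl54, a protein without a bacterial relative, read 8.11, 8.18 and 8.14 against 8.40, 8.93 and 8.08 in controls. Its groups overlapped, because control 3 lay below all p300-deleted arrays, and the difference of -0.33 (SE 0.19, adjusted p = 0.422 in limma) was -0.10 without control 2. Mrpl17, the homologue of bacterial L17, read 8.87, 8.82 and 8.91 against 8.90, 9.56 and 9.01, with control 1 inside the p300-deleted range, and its difference of -0.29 was -0.08 without control 2.

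Mrpl4, whose bacterial homologue lines the tunnel through which the new protein leaves the ribosome, read 8.99, 8.88 and 9.12 with p300 deleted and 9.31, 9.40 and 9.14 in the control arrays. These groups did not overlap, but p300-deleted 3 and control 3 lay close together, and the difference was -0.28 (SE 0.12, adjusted p = 0.245 in limma). Mrpl51, whose promoter is printed above, read 8.77, 8.83 and 8.75 against 8.90, 9.24 and 9.03, without overlap, at -0.27 (SE 0.12, adjusted p = 0.259 in limma). Mrpl28, Mrpl42 and Mrpl2, chosen after their values were seen because their groups also did not overlap, were at -0.27, -0.26 and -0.22, and at -0.18, -0.13 and -0.10 without control 2. Mrpl2 is the homologue of a bacterial protein at the centre where peptide bonds form.

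At the other end, Mrpl1, the homologue of the protein of the mobile stalk through which used tRNA leaves, had the highest difference of all members. It read 6.51, 6.48 and 6.32 in p300-deleted 1, 2 and 3 and 5.23, 6.08 and 6.29 in control 1, 2 and 3. The groups did not overlap, but p300-deleted 3 and control 3 differed little and control 1 stood far below the rest. The means were 6.44 ± 0.10 (SD, n = 3) and 5.87 ± 0.56 (SD, n = 3), with a difference of 0.57 (SE 0.24, adjusted p = 0.262 in limma). Without control 1 the difference was 0.25. Mrpl48, a component of the central protuberance, read 8.01, 8.19 and 7.91 against 7.51, 7.98 and 7.42, with control 2 inside the range of the p300-deleted arrays, at 0.40 (SE 0.16, adjusted p = 0.242 in limma). A second probe set of Mrpl48 read 7.44, 7.84 and 7.47 against 7.40, 8.02 and 7.24, at 0.03. Mrpl21 was at 0.26, Mrpl9 at 0.24 and Mrpl45, which anchors the ribosome to the inner membrane, at 0.17, all with overlapping groups. A second probe set of Mrpl9 was at 0.75 (SE 0.23, adjusted p = 0.190 in limma over all probe sets), also with overlapping groups.

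Other large subunit members were named for their roles or their bright probe sets. Mrpl44, which has the fold of a double-strand RNA nuclease, was at 0.06, and Mrpl41, a protein without a bacterial relative, at -0.15, or 0.0422 without control 2. The probe sets of Mrpl52, Mrpl24 and Mrpl13 gave the brightest signals of the large subunit and were at -0.09, 0.13 and 0.01. Of these, Mrpl24 and its SE of 0.12 came closest to parting from 0.

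In the small subunit the 5 lowest differences were those of Mrps12, Mrps28, Mrps15, Mrps21 and Mrps11. Mrps12, the homologue of the bacterial decoding-centre protein in which streptomycin resistance arises, read 8.44, 8.36 and 8.35 with p300 deleted and 8.52, 8.91 and 8.49 in the control arrays. All p300-deleted arrays lay below all controls, and only control 2 was set apart by more than a small step. The difference was -0.26 (SE 0.13, adjusted p = 0.352 in limma) and it was -0.12 without control 2. Mrps28 was at -0.23, Mrps21 at -0.18 and Mrps11 at -0.18, with overlapping groups. Without control 2 they were at -0.0331, -0.000927 and -0.0225, smaller but still negative. Mrps2 (-0.0755) and Mrps26 (-0.0508) were then below all of these, and Mrps28 stayed among the 5 lowest of the small subunit. Mrps15, at -0.22 and also with overlapping groups, differed in pattern, with 8.14, 8.05 and 8.41 against 8.36, 8.39 and 8.51, so that control 3 and not control 2 was highest, and its difference without control 2 was -0.23.

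The largest positive values of the small subunit were those of Mrps31 and Mrps35, proteins without a bacterial relative. Mrps31 read 6.87, 6.79 and 6.64 in p300-deleted 1, 2 and 3 and 6.22, 6.46 and 6.35 in control 1, 2 and 3. Its groups did not overlap and each spread by 0.12 (SD, n = 3), and the difference was 0.42 (SE 0.11, adjusted p = 0.110 in limma), the lowest adjusted p of the members. Mrps35 read 8.04, 8.02 and 7.96 against 7.47, 7.84 and 7.60, again without overlap, at 0.37 (SE 0.12, adjusted p = 0.166 in limma). Without control 2 the differences of Mrps31 and Mrps35 were 0.48 and 0.47. With arrays weighted by their quality in limma, Mrps31, Mrps35, Mrpl1 and Mrpl48 passed, with differences of 0.51, 0.48, 0.98 and 0.51 and adjusted p of 0.0176, 0.0199, 0.0215 and 0.0317. That fit called 11.7% of all tested genes and gave control 2 and control 3 weights of 0.370 and 0.405 and control 1 a weight of 2.41.

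The 3 paralogues of bacterial S18 were close to 0. Mrps18b and Mrps18c, which lie in the small subunit, were at 0.04 and -0.01, and Mrps18a, which despite its name lies in the large subunit, was at 0.01, with SE of 0.12, 0.16 and 0.12. Mrps30, also a large subunit protein by structure, was at 0.09, and Mrps6 at 0.04. Mrps36, now known as a subunit of the 2-oxoglutarate dehydrogenase complex rather than of the ribosome, was at -0.12. The brightest probe sets of the small subunit, those of Mrps24, Mrps16 and Mrps14, were at -0.15, -0.14 and -0.07, and at 0.00928, 0.0318 and 0.0654 without control 2.

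The large and small subunit had similar medians. The median difference was -0.09 over the 47 large subunit genes, with 35 below 0, and -0.06 over the 27 small subunit genes, with 18 below 0. The medians differed by -0.03, within the spread of that quantity between arrays of a group (SD 0.05). Relative to each gene's mean over 6 arrays, the median deviation of large subunit genes was -0.10, -0.02 and -0.02 in p300-deleted 1, 2 and 3 and -0.04, 0.30 and -0.10 in control 1, 2 and 3. For small subunit genes it was -0.08, 0.04 and -0.07, and then -0.03, 0.26 and -0.16. In both subunits the p300-deleted arrays lay between control 3 and control 2, except that p300-deleted 1 lay marginally below control 3 in the large subunit. With Mrps30 and Mrps18a counted in the large subunit and Mrps36 left out, the medians were -0.08 and -0.06. No p is given for these medians, since genes of one ribosome are not independent replicates.

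Members were also grouped by origin after the values were seen. Those numbered after bacterial ribosomal proteins, with Mrps24 and Mrps28 added (44), and the other members, Mrps36 among them (30), both had a median of -0.08. In the large subunit 17 of 20 of the latter and 18 of 27 of the former were below 0, and in the small subunit 5 of 10 and 13 of 17.

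**Figure D2:**
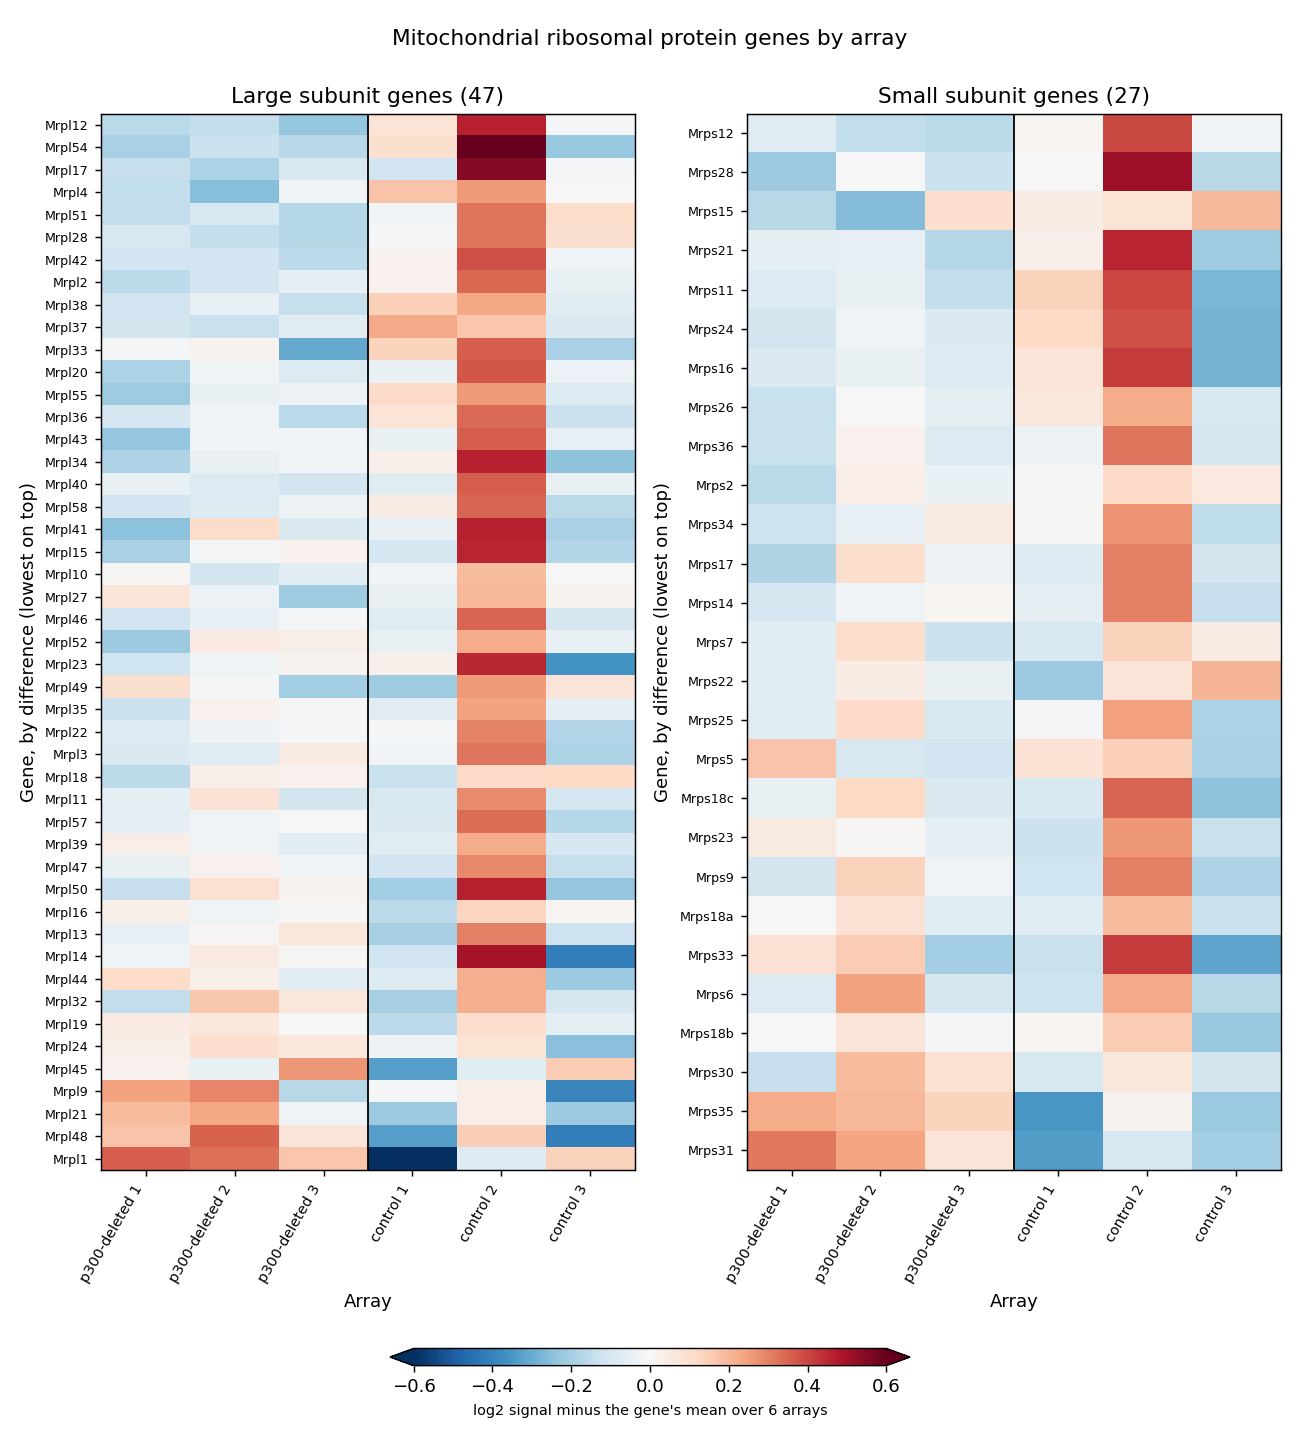
Log2 signal of each gene minus its mean over the 6 arrays (colour, red above and blue below the mean), with genes in rows ordered by their difference and arrays in columns, the 3 p300-deleted arrays left of the line and the 3 controls right of it. The column of control 2 is the reddest in both subunits, and it was the highest array for 59 of the 74 genes.

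The array of control 2 stood apart from the others in these genes. Control 2 was the highest of the 6 arrays for 59 of 74 members (79.7%), 39 of the large and 20 of the small subunit, and the lowest for 0. Among all tested genes it was the highest for 2603 of 8675. Control 3 was the lowest array for 30 members and the highest for 3. The median member read 0.37 higher in control 2 than in the mean of control 1 and control 3, against 0.04 for the median tested gene. The SD of a member had a median of 0.23 in controls and 0.08 in p300-deleted cells (0.17 and 0.10 over all tested genes), and it was larger in controls for 68 of 74 members, against 70.0% of all tested genes.

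Without control 2 the balance of signs turned over. The count of members below 0 went from 53 to 30, the count above 0 from 21 to 44, and 23 members changed sign. The median over all members was 0.03 without it and -0.08 with it, that of the large subunit 0.03 and that of the small subunit 0.04, while 51.4% of all tested genes were then below 0. At an unadjusted p under 0.05, 5 members were higher and 0 lower, and 0 passed at an adjusted p under 0.05 in limma (lowest 0.0707). Without control 3 the medians of the large and small subunit were -0.18 and -0.13. The count of members lower at an unadjusted p under 0.05 was then 16, against 4 with all arrays. Over all tested genes, 230 passed at an adjusted p under 0.05 in limma without control 3 and 118 without control 2, against 149 with all arrays. The unadjusted shares of all tested genes in these fits are not given here, so the unadjusted counts are not read as particular to the members.

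**Figure D3:**
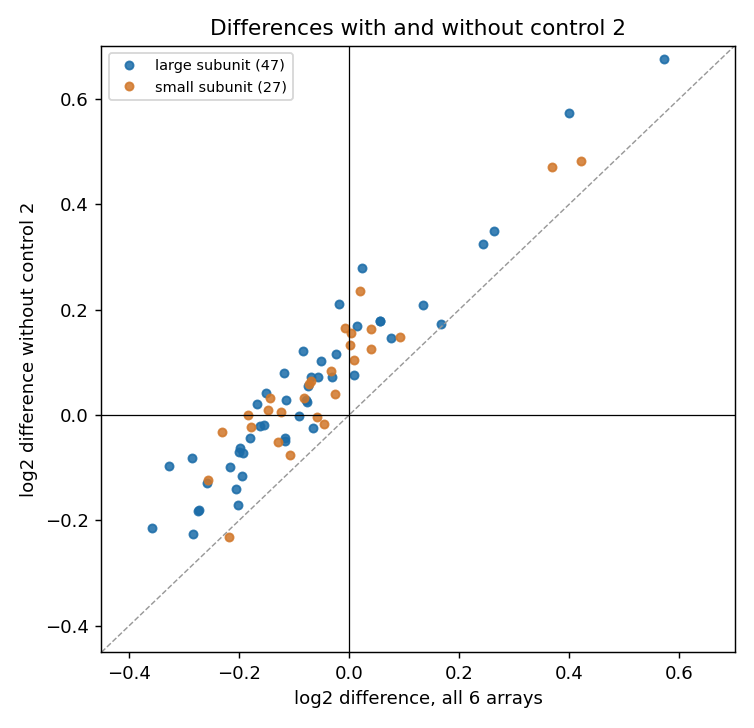
Log2 difference of each gene with all 6 arrays (horizontal axis) against the difference without control 2 (vertical axis), large subunit genes in blue and small subunit genes in orange, with the dashed line marking equal values. Nearly all points lie above the line, and 23 of the 74 change sign.

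Of the measures of RNA quality, the Gapdh one set this array apart. Gapdh is read by control probe sets at both ends of its transcript, and their 3' minus 5' value was 0.593 in control 2, against 0.232 and 0.208 in the other controls and 0.0568 to 0.144 in p300-deleted cells, without overlap between the groups. The same value for actin overlapped between the groups, at 0.287 to 0.431 in p300-deleted cells and 0.297 to 0.458 in controls, with control 2 the highest. With the Gapdh value as a covariate the medians of the large and small subunit were 0.13 and 0.19, and 0 members passed (limma). Control probe sets for 18S ribosomal RNA averaged 6.03 in control 2 and 5.68 and 8.69 in control 1 and control 3, against 7.74 to 9.47 in p300-deleted cells. With it as a covariate the medians were -0.04 and 0.03. The mean of the 14 markers of dividing cells present, the untested Tyms included, was 7.49 in control 2, the lowest control, and 8.38 in control 3, the highest. Since the Gapdh value did not overlap between the groups, the fit with it cannot tell it apart from the group. The part of RNA quality in the members' values was not tested.

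Of the 74 members 33 had several probe sets, up to 7, and 19 of these had another probe set whose difference took the other sign. In 13 of the 19 that further probe set was above the limit for dim genes. Mrpl1 had a second probe set at 0.60 beside its brightest at 0.57, and a further, dim one at -0.08. Mrpl19, a protein at the subunit interface in bacteria, was at 0.08 by its brightest probe set and at 0.60 by its second (adjusted p = 0.0897 in limma over all probe sets), which read 6.87, 6.93 and 6.67 against 6.10, 6.16 and 6.43, without overlap. Mrps5 was at -0.03 by its brightest and at 0.39 by its second (adjusted p = 0.132), which read 6.44, 6.38 and 6.42 against 5.94, 6.10 and 6.01. For Mrps2 the values were -0.11 and 0.59, and for Mrpl39 -0.03 and 0.22. Mrpl51 and Mrpl21, named above by their brightest probe sets, had further ones at 0.10 and -0.09. For Mrps5, Mrps2, Mrpl39, Mrpl51 and Mrpl21 the direction depends on the probe set. The probe sets of Mrpl1 and Mrpl19 above the limit for dim genes were all positive. The brightest probe set of 30 members has an identifier ending in _s_at, _x_at or _a_at and may bind several transcripts.

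Another 4 tested proteins of the ribosome have other names, and 0 of them passed the test (limma, 0 at an unadjusted p under 0.05), with a median of -0.12. Gadd45gip1 was at -0.21 and Ptcd3, an RNA-binding protein of the small subunit, at -0.15, and control 2 was the highest array for all 4. Of 18 tested assembly factors 1 fell and 17 did not pass, with a median of -0.03, against 0.726% of all tested genes lower at that threshold. At an unadjusted p under 0.05 (limma) 2 were lower and 1 was higher, against 9.89% and 8.21% of all tested genes. These were Rcc1l and Noa1 (-0.44) on the lower side and Mterf4 (0.35) on the higher. The one that passed the adjusted threshold was Rcc1l, known as WBSCR16 in human, where it acts in assembly of the large subunit. Rcc1l read 5.26, 5.17 and 5.40 with p300 deleted and 5.86, 6.05 and 5.74 in the control arrays. Its groups lay well apart, and it fell by 0.60 (SE 0.12, adjusted p = 0.0493 in limma), just inside the threshold, and passed under 2 of 16 alternatives.

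Factors that act with the ribosome were read in the same fit. Of 7 translation factors, 8 mitochondrial aminoacyl-tRNA synthetases, 9 genes of mitochondrial transcription and DNA maintenance and 8 regulators of mitochondrial biogenesis, 0 passed in limma (0, 1, 1 and 1 at an unadjusted p under 0.05), with medians of 0.04, -0.09, -0.05 and -0.10. Tufm, the elongation factor that brings tRNA to the ribosome, was lower in each p300-deleted array than in any control, and Gfm1, the factor that moves the ribosome along, read 7.41, 7.42 and 7.50 against 7.66, 7.63 and 7.58. The groups did not overlap for Gfm1 either, and the differences were -0.19 for Tufm and -0.18 for Gfm1, each with an SE of 0.10. Without probe sets ending in _s_at, _x_at or _a_at Gfm1 was at 0.11, so its direction depends on the probe set. Lrpprc, which stabilises mitochondrial messenger RNA, was at -0.30 and Iars2, the isoleucyl-tRNA synthetase, at -0.28, both without overlap between groups. Gabpa, the DNA-binding chain of GABP, whose motif is described above, was at 0.52 (SE 0.17, adjusted p = 0.165 in limma), with 8.52, 8.69 and 8.51 against 8.06, 7.70 and 8.39. Polrmt, the mitochondrial RNA polymerase, was at -0.16 and the transcription factor Myc at -0.43 (adjusted p = 0.297). With array weights Gabpa (0.53), Lrpprc (-0.37) and Sars2 (-0.51) passed, with adjusted p of 0.0266, 0.0283 and 0.0368 in limma, and Gabpa also passed without control 3, at 0.69 (adjusted p = 0.0460).

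Head-to-head neighbours of the members were read where they were tested, which held for 14 of 22 members, and 0 of them passed (limma). Sars2, the mitochondrial seryl-tRNA synthetase that shares its upstream region with Mrps12 in the window above, read 5.84, 5.92 and 5.90 with p300 deleted and 6.53, 6.21 and 5.88 in the control arrays. Its difference was -0.31 (SE 0.16, adjusted p = 0.346 in limma) beside -0.26 for Mrps12, but its highest array was control 1. Mrpl46 and Mrps11, a member of each subunit facing each other across 41 bases, were at -0.12 and -0.18, both highest in control 2, and at 0.0293 and -0.0225 without it. Of the others, picked here after their values were seen, Ncapd2, a condensin subunit opposite Mrpl51, was at -0.76 (adjusted p = 0.140), and Eme1, an endonuclease subunit opposite Mrpl27, at -0.67 (adjusted p = 0.0912). Members with an NRF1 match had a median difference of -0.01 (12 genes) and those without of -0.08 (53 genes). For the ETS motif the medians were -0.09 and -0.07, and for YY1 -0.12 and -0.07.

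Genes of the respiratory chain and ATP synthase, the machinery that mitochondrial ribosomes serve, were read beside the members. Their median was -0.06 over 76 tested genes, with 0 called in limma (at an unadjusted p under 0.05, 3 were higher and 1 was lower), and control 2 was highest for 63 of them (82.9%). Over 47 cytosolic ribosomal protein genes the median was -0.02, with 0 called (1 higher and 0 lower), and control 2 was highest for 22 (46.8%). The median deviation in control 2 was 0.26 for the respiratory chain and 0.06 for cytosolic ribosomal proteins. The differences between these lists were not tested. The outlying values were those of single genes, such as Rpl27a at 1.35 (SE 0.78), which read 8.49, 9.53 and 8.56 against 6.41, 6.43 and 9.68, Rps6 at 0.33, Cox6b2 at 0.41 and Atp5mpl at -0.38. With array weights Rpl27a and Rps6 passed (adjusted p of 0.0397 and 0.0278 in limma), and Rpl27a also without control 3 (adjusted p = 0.0135).

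**Figure D4:**
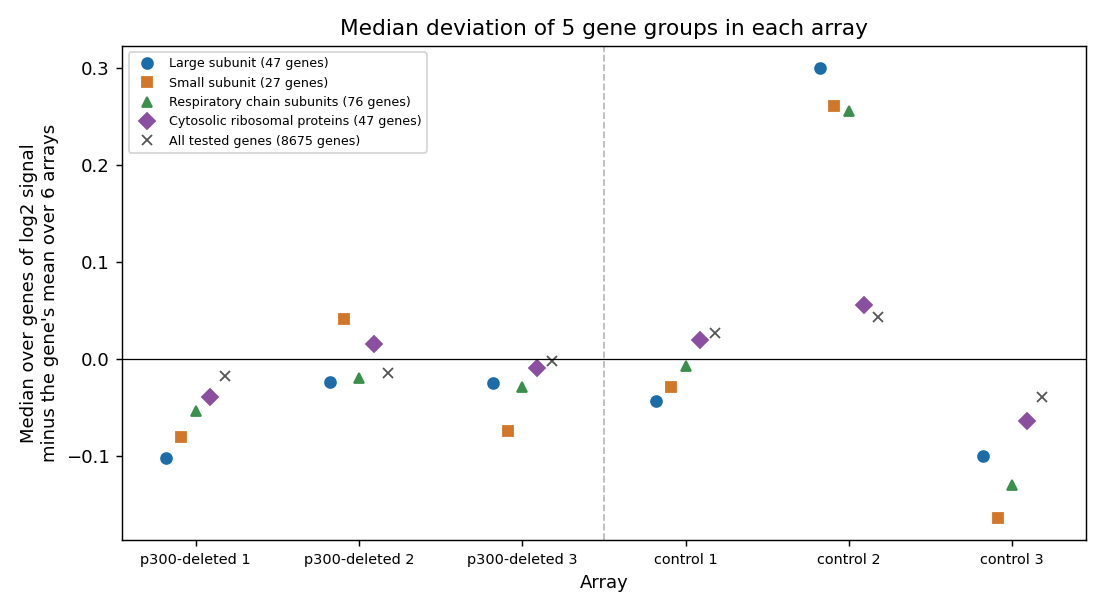
Median over genes of the log2 signal minus each gene's mean over 6 arrays (vertical axis), for 5 gene groups in each of the 6 arrays (horizontal axis). In control 2 both mitochondrial ribosomal subunits and the respiratory chain stand at 0.26 to 0.30, while cytosolic ribosomal proteins and all tested genes stand at 0.06 and 0.04.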

How the data were processed

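RNA from 3 p300-deleted and 3 control samples was measured on 1-colour arrays. Values in the deposited table are on the log2 scale, 1 per probe set and array, and come from RMA, per the submitters' own notes on processing (version not given in the sources used here). This method corrects background, quantile normalizes and summarises probes, so a shift shared by all transcripts is removed. Of 22690 probe sets, 20393 have 1 symbol, 691 several and 1606 none, and 20364 were matched by gene ID to RefSeq. Control probe sets were kept out of gene values. The dimmest 30% of genes were left out, and the other 8675 went into 1 limma fit (lmFit, eBayes; limma 3.58.1, R 4.3.3). Tests were two-sided and Benjamini-Hochberg adjusted over all 8675, at a threshold of 0.05. On simulated data from 8675 genes the fit recovered 31.3%, 81.8% and 97.3% of genes changed by 0.5, 1 and 2 on the log2 scale. The simulated noise was independent between genes and equally wide in both groups, unlike that of the members, and no change under 0.5 was simulated. With 3 arrays per group their number limits the precision.

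Members and lists were chosen with earlier results of these data known. Named were members past the threshold, in each subunit the 5 highest, 5 lowest and 3 brightest, a fixed set (Mrpl12, Mrps12, Mrpl44, Mrpl41, Mrps36, Mrps30 and the Mrps18 paralogues), members whose probe sets differ in sign, and, of each list, members past the threshold or else the 2 largest differences. Alternatives were the dim filter, normalization, centring, choice of probe sets, variance model, weights per array, a block on replicate number, 2 covariates, each array left out, another threshold and subunit by structure. Mrpl30 and Mrpl53 share their probe sets with another symbol and were not members.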

Additional observations from a re-analysis of the deposited data

How the results depend on the processing

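At the adjusted threshold of 0.05 in limma 0 members passed, and the same was found under every alternative except array weights, where 4 passed. The companion gene lists gave 1 call, Rcc1l. They gave 0 without a filter, with the dimmest 50% left out, with arrays quantile normalized again or centred, with probe sets of a gene averaged, no shared probe sets, a trended and robust variance, the replicate block and either covariate, 9 with array weights, and 0 to 3 with 1 array left out. Over all genes 149 calls became 9 to 230 with 1 array left out, 1019 with array weights, 98 with the replicate block, 95 with the mean of all probe sets, 57 without shared probe sets, 48 with the Gapdh covariate and 15 with the 18S covariate. The large subunit median ran from -0.18 to 0.03 and the small from -0.13 to 0.04 with 1 array left out, positive only without control 2, and they were 0.13 and 0.19 with the Gapdh covariate. Large minus small ran from -0.075 to -0.011, and members below 0 from 30 to 61. Deviations of same-numbered samples correlated at -0.0741, 0.123 and -0.120, and those of differently numbered samples at -0.187 to 0.230. With 3 arrays per group these values cannot tell if same-numbered samples share more than a number. Under the replicate block no member passed (0). The lists of signs that follow cover only the genes named by the rule above. Other members turned as well, and the 23 that changed sign without control 2 were counted over all 74. With arrays centred on their medians the sign turned for Mrpl13 (-0.00845), Mrps18a (-0.0146) and Mrps9 (-0.0192). With the mean of all probe sets the sign turned for Mrpl13 (-0.0918), Mrpl11 (0.026), Mrpl15 (0.0164), Mrpl3 (0.000214), Mrpl39 (0.10), Mrps2 (0.24), Mrps5 (0.18) and Mrps9 (-0.00456). Without probe sets ending in _s_at, _x_at or _a_at the sign turned for Mrpl17 (0.0383), Mrpl51 (0.10), Mrpl21 (-0.0885), Mrpl15 (0.11), Mrpl35 (0.0395), Mrpl39 (0.22), Mrps9 (-0.0101) and Gfm1 (0.11). With array weights the sign turned for Mrps18c (0.0764), Mrpl11 (0.0435), Mrpl35 (0.00359) and Mrpl39 (0.0252). With the 18S covariate the sign turned for Mrps11 (0.0194), Mrps24 (0.0462), Mrps16 (0.0526), Mrps14 (0.0149), Mrps18c (0.0863), Mrpl3 (0.0674), Mrpl39 (0.034), Mrps5 (0.13), Polrmt (0.0285), Rpl27a (-0.23) and Atp5mpl (0.00809). With the Gapdh covariate the sign turned for Mrpl54 (0.12), Mrpl17 (0.087), Mrpl52 (0.0841), Mrps28 (0.17), Mrps21 (0.18), Mrps11 (0.14), Mrps24 (0.17), Mrps16 (0.20), Mrps14 (0.19), Mrpl41 (0.25), Mrps36 (0.14), Mrps18c (0.35), Mrpl11 (0.21), Mrpl15 (0.26), Mrpl3 (0.19), Mrpl33 (0.0916), Mrpl34 (0.20), Mrpl35 (0.12), Mrpl39 (0.17), Mrps5 (0.10), Gadd45gip1 (0.0464) and Atp5mpl (0.11). Leaving out 1 array turned the sign of Mrpl11 (-0.12 to 0.0717), Mrpl13 (-0.0824 to 0.17), Mrpl15 (-0.24 to 0.0798), Mrpl3 (-0.18 to 0.0723), Mrpl34 (-0.33 to 0.0214), Mrpl35 (-0.13 to 0.0243), Mrpl39 (-0.0904 to 0.0714), Mrpl41 (-0.29 to 0.0422), Mrpl44 (-0.0426 to 0.18), Mrps14 (-0.16 to 0.0654), Mrps16 (-0.32 to 0.0318), Mrps18a (-0.0548 to 0.10), Mrps18b (-0.0645 to 0.13), Mrps18c (-0.13 to 0.17), Mrps24 (-0.33 to 0.00928), Mrps36 (-0.21 to 0.00628), Mrps5 (-0.13 to 0.0397), Mrps6 (-0.0724 to 0.16) and Mrps9 (-0.0893 to 0.15), each given as the range over the 6 fits. The cause of these changes was not tested. Arrays give no counts, and with 3 per group differences near 0.5 were often missed on simulated data.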
